A study of Mus musculus with 3 samples.

Results

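A set of 9 genes that link the circadian clock to other programmes of the cell was examined in group 2 innate lymphoid cells (ILC2s), resident lymphocytes of the tissues that lack rearranged antigen receptors and secrete cytokines such as IL-5 and IL-13. The genes were taken by name from the 27179 genes of the count table. The 9 genes encode the repressors DEC1 and DEC2 (Bhlhe40, Bhlhe41), the repressor NFIL3, the PAR bZIP activators HLF, DBP and TEF, the clock activators BMAL1 (Arntl) and CLOCK, and the cryptochrome ligase subunit FBXL21. RNA was sequenced in 3 libraries, stated to come from 3 wild-type mice of the C57BL/6 strain. All of them form 1 group with no treatment, and no other genotype or condition was compared. The sort kept cells with CD45, CD90.2, CD127 and KLRG1 and removed cells with B220, CD3, CD5, CD8, CD11b, CD11c or NK1.1. The tissue, the age and sex of the mice and the hour of collection were not stated, so no level can be placed in the daily cycle.

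In the clock, BMAL1 and CLOCK form a pair of bHLH-PAS proteins that binds E-boxes and switches on the period and cryptochrome genes, whose products then silence the pair. DEC1 and DEC2 occupy the same E-boxes and repress them, while the ROR and REV-ERB receptors compete at elements in Arntl and set its rhythm. HLF, DBP and TEF activate, and NFIL3 represses, genes with a D-box, and FBXL21 is a subunit of a ligase that attaches ubiquitin to the cryptochromes. Several of these proteins also act outside the clock: DEC1 supports GM-CSF and restrains IL-10 in T helper cells, DEC2 is needed by B-1a cells, NFIL3 is needed for innate lymphoid progenitors, and HLF marks blood stem cells.

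Libraries held 17819551 to 26374248 counts. Levels are given as CPM, which are counts scaled to 1000000 per library, and as CPM per kb of exon where genes are compared with each other. A count of 0 allows up to 3 counts, or 0.115 to 0.171 CPM, and this limit covers counting error only. All 12 ILC2 marker genes were detected, meaning at 1 CPM or more in each mouse. Among markers of other cells, 5 of 8 ILC3, 8 of 10 B and plasma cell, 6 of 11 T cell, 3 of 10 NK cell and ILC1, 3 of 11 myeloid, 3 of 9 mast cell, basophil and eosinophil, and 3 of 9 epithelial and stromal genes were detected. The highest mean in these lists was 18997 CPM for Igkc (B and plasma cells), 1781 for Cd74 (myeloid), 771 for Ltb (ILC3) and 758 for Trbc1 (T cells). In the remaining lists it was 94.7 CPM for Gzma, 24.6 for Pecam1 and 11.4 for Cpa3. The median of the mean levels was lower, at 198 CPM for B and plasma cells and 17.4 for ILC3. It was 1.97 CPM for T cells, 1.27 for NK cells and ILC1, and 0.0384 for the myeloid list. For epithelial and stromal genes it was 0.607 CPM, and for mast cell, basophil and eosinophil genes 0. The cells that gave this RNA were not tested. Immunoglobulin genes and Jchain took 1.61%, 5.25% and 9.63% of the counts of mice 1, 2 and 3. In bulk libraries, fewer cells of a type and less RNA per cell cannot be told apart.

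Of the 9 genes, 7 were detected, whereas 31.1% of all genes in the table and 56.1% of the genes with any count were. The 9 genes were chosen with earlier results of these data known, so this contrast is only a description. The factors of each kind were unevenly filled. Bhlhe40, Nfil3 and Fbxl21 were abundant, Hlf and Arntl were intermediate, Clock and Dbp were low, and Tef and Bhlhe41 were not detected. Per kb of exon the order of the mean levels was Bhlhe40 (146 ± 30.7 CPM per kb, SD, n = 3), Nfil3 (59.5 ± 23.3), Fbxl21 (31.5 ± 6.52), Hlf (4.48 ± 1.40), Arntl (3.70 ± 1.45), Clock (1.16 ± 0.357), Dbp (0.942 ± 0.171), Tef (0.239 ± 0.277) and Bhlhe41 (0.00380 ± 0.00659). The values of the 3 mice overlapped between Hlf and Arntl, between Clock and Dbp, and between Tef and Bhlhe41, both at 0 in mouse 1. They did not overlap between the other neighbours in this order, although the lowest Nfil3 value (40.4 CPM per kb, mouse 2) lay close to the highest Fbxl21 value (39.0, mouse 2).

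**Figure D1:**
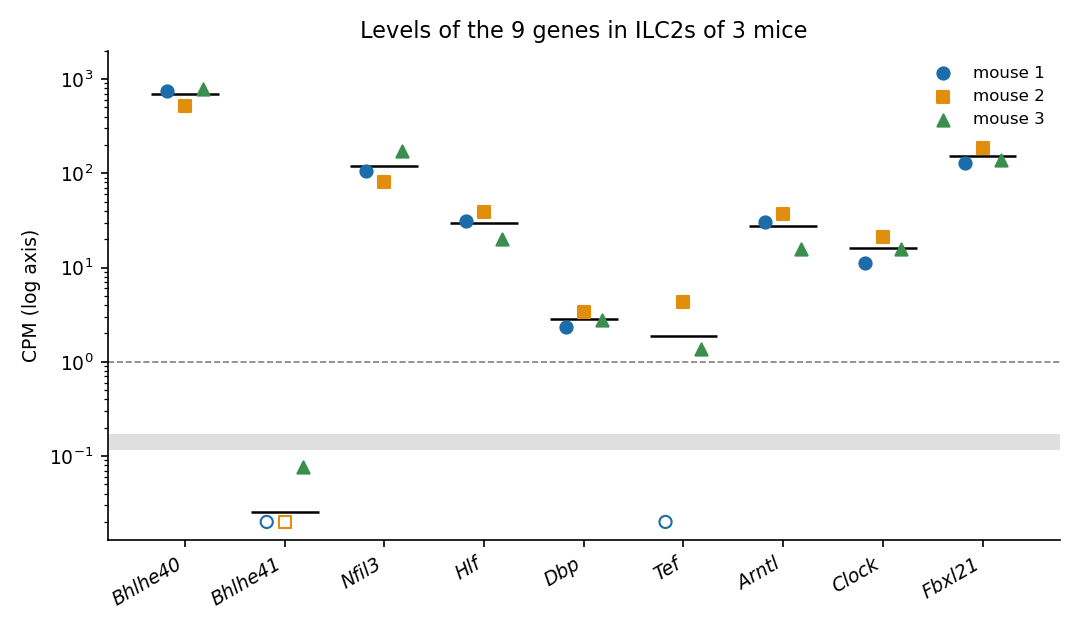
Level of each of the 9 genes in CPM on a log axis, with 1 point per mouse and a line at the mean of 3 mice. Open symbols at the bottom edge are libraries with 0 counts, the dashed line is the detection minimum of 1 CPM, and the grey band is the 0.115 to 0.171 CPM that a count of 0 allows. Bhlhe40 lies above all others, and Bhlhe41 and, in mouse 1, Tef lie at the bottom.

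Bhlhe40, on chromosome 6 (108660629 to 108666925, plus strand, mm10), had 747, 523 and 792 CPM in mice 1, 2 and 3. Mouse 2 was lowest and the other mice were close to each other, with a 1.52-fold span. Per kb it stood at rank 489 of 8325 detected genes with an exon length, in the top 5.87%. Among 76 bHLH factor genes only Id2 (3192 ± 614 CPM per kb), which encodes an inhibitor of E proteins, and Hes1 (169 ± 24.9), a NOTCH target, were higher.

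Its paralogue Bhlhe41, also on chromosome 6 (145858243 to 145865420, minus strand), had 0, 0 and 2 counts, against 16928, 9189 and 20662 counts of Bhlhe40. The 2 counts equal 0.0767 CPM in mouse 3, less than a count of 0 allows there. Bhlhe40 was higher in every mouse. A fold was not computed, since Bhlhe41 had 0 counts in 2 libraries. DEC2 has a role in B-1a cells, and 8 of the 10 B and plasma cell markers were detected. Among all genes with a count the share was 56.1%. Igkc, an immunoglobulin light chain gene, had 4822, 18010 and 34158 CPM, whereas no library held a count of Pax5 or Ms4a1. The part of such RNA in the Bhlhe41 counts was not tested. Of the Bhlhe41 transcript 50-mers (stretches of 50 bases in the GENCODE M21 transcripts), 16.4% also occurred in another gene, Gm43909, on either strand.

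The RefSeq promoter of Bhlhe41 is shown because the gene is a textbook clock target and its promoter carries an E-box. It is given as the 250 bases before the start of the transcript (GRCm38.p6, chr6:145865421-145865670, minus strand), 5′ to 3′, with the E-box CACGTG in capitals.
Bhlhe41: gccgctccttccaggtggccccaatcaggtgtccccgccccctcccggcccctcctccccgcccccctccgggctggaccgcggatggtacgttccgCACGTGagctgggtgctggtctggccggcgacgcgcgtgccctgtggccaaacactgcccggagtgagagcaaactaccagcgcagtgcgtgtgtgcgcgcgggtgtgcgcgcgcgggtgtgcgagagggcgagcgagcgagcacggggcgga
The E-box began 153 bases before the start. It was searched on both strands, where it reads the same, in windows of 250 bases before to 50 bases after each start, and 7.15% of all 32851 windows held it. RefSeq windows were matched for all of the 9 genes but Bhlhe40, and those of Bhlhe41 and Tef were the ones with this E-box.

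The functions of DEC1 outside the clock were represented by 5 genes tied to it in lymphocytes, of which 4 were detected. Among all genes with a count 56.1% were. Csf2, which encodes GM-CSF, had 7466, 9250 and 4877 CPM, and Il2ra, the alpha chain of the IL-2 receptor, had 549, 471 and 509 CPM. Il2 had 103, 137 and 89.3 CPM and Ifng 2.65, 4.09 and 7.56 CPM. Il10, which DEC1 represses in T cells, had 0.0441, 0.114 and 0.0767 CPM, which a count of 0 would also allow. Of the 4 detected genes, Csf2 and Il2 were lowest in mouse 3, where Bhlhe40 was highest. Il2ra was lowest in mouse 2, where Bhlhe40 was also lowest, and Ifng in mouse 1. Of the 8461 detected genes, 18.8% had mouse 3 lowest and mouse 2 highest, and 15.3% had mouse 3 lowest and mouse 1 highest. Mouse 2 was lowest in 20.6% with mouse 3 highest and in 16.5% with mouse 1 highest. A link of these orders to Bhlhe40 was not tested.

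Within the clock, the E-box genes that DEC1 shares with BMAL1 and CLOCK were uneven in level. Of 15 such targets, DEC factors and PAR bZIP genes included, 9 were detected, beside 56.1% of all genes with a count. The median of the mean levels of the 15 targets was 2.82 CPM against 5.28 CPM for all genes with a count. The period gene Per1 had 17.5, 19.96 and 16.8 CPM. Per2 had 0, 0 and 1.69 CPM and Per3 0.882, 1.19 and 1.42 CPM. Nr1d2, the gene of REV-ERBβ, stood apart from its paralogue Nr1d1 (REV-ERBα), with 134, 160 and 92.6 CPM against 2.03, 1.08 and 2.34 CPM. The same E-box letters occurred in the windows of Per1, Cry1 and Ciart. Cry1, a cryptochrome gene, had 5.07, 2.67 and 3.72 CPM, and Ciart, a further repressor of BMAL1 and CLOCK, had 0, 0.0569 and 4.30 CPM. The 5 genes with this E-box thus ranged from 0.0256 (Bhlhe41) to 18.1 (Per1) CPM on average.

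Arntl, on chromosome 7 (113178471 to 113314126, plus strand), had 30.3, 37.4 and 15.9 CPM in mice 1, 2 and 3, with a 2.35-fold span. Clock, on chromosome 5 (76209868 to 76305603, minus strand), had 11.1, 20.9 and 15.9 CPM. Mouse 2 was highest for both genes, but mouse 3 was lowest for Arntl and mouse 1 for Clock. Per kb, Arntl exceeded Clock in 3 of 3 mice, by 2.28, 1.69 and 0.87 on the log2 scale (mean 1.61 ± 0.71, SD, n = 3), and the exact two-sided sign-flip p was 0.25. This is the smallest p that 3 libraries allow, so none of the 10 pairs compared could pass 0.05. Without division by length the difference was 0.75 ± 0.71, and with the length of the longest coding transcript it was 2.46.

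Bhlhe40 exceeded both activator genes in every mouse. The log2 difference per kb from Arntl was 5.28, 4.47 and 6.27 (mean 5.34 ± 0.90, SD, n = 3), and from Clock 7.56, 6.16 and 7.14 (mean 6.95 ± 0.72), each with an exact sign-flip p of 0.25. In both pairs the difference was smallest in mouse 2, where Bhlhe40 was lowest and both activators were highest.

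The close relatives of both activators were lower than Clock and Arntl themselves. Npas2, which can replace CLOCK, had 1.19, 0 and 3.30 CPM, and Arntl2, the paralogue of BMAL1, had 0 counts in every mouse. The genes of the bHLH-PAS proteins of the oxygen and ligand response were higher than Clock and Arntl in every mouse, Ahr by the least. Epas1 (HIF-2α) had 321, 425 and 255 CPM, Hif1a 228, 215 and 175 CPM, and Ahr, the aryl hydrocarbon receptor, 53.8, 89.2 and 67.1 CPM. Their usual partner Arnt was near Clock in level, with 10.5, 14.4 and 14.6 CPM. Per kb, the means were 1.65 ± 0.287 for Arnt and 1.16 ± 0.357 for Clock. Those of Epas1, Hif1a and Ahr were 59.7 ± 15.3, 34.9 ± 4.62 and 11.4 ± 2.90, against 3.70 ± 1.45 for Arntl.

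Arntl is itself driven through ROR elements, and their letters in its transcript start region are shown because Rora, a ROR gene, was abundant. The 30 bases at chr7:113207529-113207558 (GRCm38.p6, plus strand) are given 5′ to 3′ with TAGGTCA in capitals.
Arntl: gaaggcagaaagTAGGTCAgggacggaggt
The capitals began at base 31 of the transcript from the second start of Arntl in the promoter table, which lies 29040 bases inside the gene from its outermost RefSeq start. TAGGTCA, searched on both strands, occurred in 2.61% of all windows, and among those of the 8 genes with a window also in that of Nfil3. Rora, which encodes an activator at such elements and is an ILC2 regulator, had 480, 284 and 487 CPM. Nr1d2, the gene of the competing REV-ERBβ, had 134, 160 and 92.6 CPM. Per kb, the means were 31.9 ± 8.82 for Rora and 23.8 ± 6.26 for Nr1d2. Whether either acts on Arntl in these cells was not tested.

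Nfil3, on chromosome 13 (52967209 to 52982878, minus strand), had 107, 81.9 and 173 CPM in mice 1, 2 and 3. Mouse 3 was highest and mouse 2 lowest, a 2.11-fold span. Per kb it held rank 7 of 52 bZIP factor genes, behind Crem (1078 ± 129 CPM per kb), a cyclic AMP responsive factor, Junb (417 ± 240) and Fos (139.7 ± 49.6), AP-1 subunits, and 3 others. None of the Nfil3 50-mers occurred in another gene.

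The promoter table gives Nfil3 a start 1839 bases inside the gene, counted from its outermost RefSeq start. The 250 bases before this inner start (GRCm38.p6, chr13:52981040-52981289, minus strand) are shown with the ROR letters, here on the opposite strand, in capitals. The capitals began 12 bases before that start.
Nfil3: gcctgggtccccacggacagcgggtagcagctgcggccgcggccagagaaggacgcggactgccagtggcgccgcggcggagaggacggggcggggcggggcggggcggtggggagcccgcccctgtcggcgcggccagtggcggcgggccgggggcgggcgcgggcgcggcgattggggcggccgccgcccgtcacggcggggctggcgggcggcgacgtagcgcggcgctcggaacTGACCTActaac

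Hlf, on chromosome 11 (90336535 to 90390917, minus strand), was the leading PAR bZIP gene with 31.2, 38.6 and 20.02 CPM. Dbp, on chromosome 7 (45705100 to 45710203, plus strand), had 2.34, 3.36 and 2.76 CPM, the smallest relative span of the 7 detected genes at 1.44-fold. Tef, on chromosome 15 (81802673 to 81826863, plus strand), had 0, 4.27 and 1.38 CPM, from 0, 75 and 36 counts. The 0 of mouse 1 lies well below the other mice even at the 0.132 CPM that it allows, and Tef would count as detected if mouse 1 were left out. Its mean was 1.88 CPM and would be 0.690 CPM without mouse 2. Of the summed PAR bZIP level per kb, Hlf made up 85.7%, 77.7% and 73.2% in mice 1, 2 and 3, Dbp 14.3%, 15.1% and 22.5%, and Tef 0%, 7.28% and 4.29%.

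Both RefSeq promoters of Tef, at its outermost start and at one 8741 bases inside the gene, carry the E-box, and their 250 bases before each start are shown for comparison with Bhlhe41 (GRCm38.p6, chr15:81802423-81802672 and chr15:81811164-81811413, plus strand). Capitals mark CACGTG, 127 and 138 bases before the respective start.
Tef, first start: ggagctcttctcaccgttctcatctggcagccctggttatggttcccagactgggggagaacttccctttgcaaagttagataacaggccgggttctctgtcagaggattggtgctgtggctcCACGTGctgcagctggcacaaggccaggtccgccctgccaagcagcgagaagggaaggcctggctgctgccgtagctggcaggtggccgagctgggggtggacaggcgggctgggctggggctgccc
Tef, second start: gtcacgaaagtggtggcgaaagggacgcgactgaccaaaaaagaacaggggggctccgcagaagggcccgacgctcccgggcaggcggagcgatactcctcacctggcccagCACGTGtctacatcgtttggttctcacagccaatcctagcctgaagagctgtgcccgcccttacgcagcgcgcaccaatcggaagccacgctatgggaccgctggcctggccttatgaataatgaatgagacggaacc
No D-box, searched as TTATGTAA and TTACGTAA on both strands, occurred in the 12 windows, which cover 8 of the 9 genes and not Bhlhe40. A D-box was in 1.06% of all windows. Of 28 clock genes and targets 23 had a window, and Per3, with 2 D-boxes, and Timeless were those with a D-box.

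In RNA per kb, the gene of the D-box repressor exceeded those of the activators in every mouse, and protein was not measured. Per kb, Nfil3 exceeded Hlf by 3.48, 2.80 and 4.80 on the log2 scale (mean 3.69 ± 1.02, SD, n = 3), and exceeded Dbp by 5.80, 4.98 and 6.30 (5.69 ± 0.66). Nfil3 exceeded the sum of Hlf, Dbp and Tef by 3.20, 2.39 and 4.28 (3.29 ± 0.95), a mean fold of 9.79. Each of these had an exact sign-flip p of 0.25. Nfil3 and Hlf stood in opposite order in mice 2 and 3: mouse 2 had the lowest Nfil3 and the highest Hlf, and mouse 3 the reverse. The difference from Hlf therefore ranged from 2.80 in mouse 2 to 4.80 in mouse 3. Without division by length, the difference from Hlf was 1.97 ± 1.02 and that from the sum 1.72 ± 0.99.

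Hlf exceeded Dbp by 2.32, 2.18 and 1.495 per kb (2.00 ± 0.44, SD, n = 3; exact sign-flip p = 0.25) and by 3.16 ± 0.44 without division by length. Both Nfil3 and Hlf exceeded Tef in each mouse, and the 0 counts of Tef in mouse 1 allow no fold. The transcript of Dbp overlaps that of Sphk2, a sphingosine kinase gene on the opposite strand, over 741 bases. Sphk2 had 9.04, 6.54 and 10.05 CPM, and 16.2% of Dbp 50-mers also occurred in it. The SMARTer kit does not record strand, and reads within the overlap cannot be assigned to Dbp or Sphk2.

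**Figure D2:**
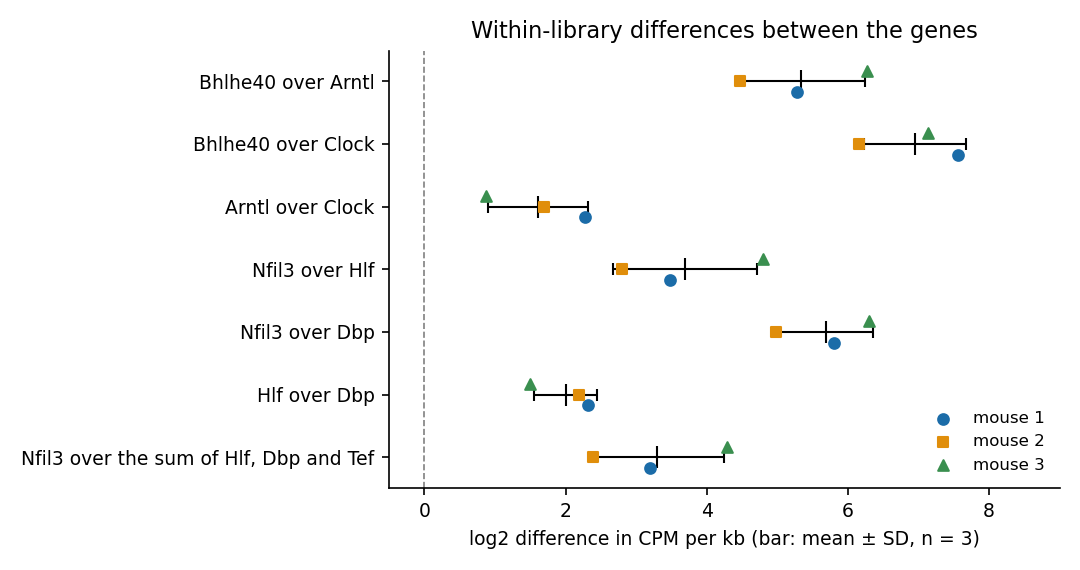
Within-library log2 differences in CPM per kb of exon for the 7 comparisons with a fold, with 1 point per mouse, and the mean ± SD of 3 mice as a bar. Pairs were chosen with earlier results of these data known and name the higher gene first, so the sign of a mean is no finding. Every point lies above 0, and the differences that involve Nfil3 are smallest in mouse 2 and largest in mouse 3.

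Of 6 known output genes of the PAR bZIP factors, 3 were detected. Over all genes of the table the share was 31.1%, and among those with a count 56.1%. Pdxk, the vitamin B6 kinase, had 39.2, 41.4 and 42.7 CPM, Por, the cytochrome P450 reductase, 14.2, 17.6 and 11.8 CPM, and Alas1, the first enzyme of haem synthesis, 8.29, 2.27 and 11.6 CPM. The liver genes Nr1i3, Cyp2a5 and Ces2a had 0 counts in each mouse.

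Of 9 genes tied to NFIL3 in innate lymphoid development and T helper 2 cells, 7 were detected. The share was 31.1% of all genes in the table and 56.1% of those with a count. Id2, which all innate lymphoid cells need, had 9408, 7479 and 6460 CPM, and Gata3, the ILC2 lineage regulator, 525, 409 and 381 CPM. Tox, a regulator of early innate lymphoid cells, had 68.8, 32.5 and 42.3 CPM, and Tcf7 22.1, 10.1 and 5.41 CPM. Zbtb16, the gene of the progenitor factor PLZF, had 0 counts, and Eomes, which NFIL3 supports in NK cells, had a single count in mouse 2. The cytokine genes were uneven in level, with Il5 at 2479, 1389 and 1924 CPM, Il4 at 785, 1504 and 566 CPM, and Il13 at 17.5, 36.7 and 18.1 CPM. Of the 7 detected genes, 4 (Id2, Gata3, Tcf7 and Il4) were lowest in mouse 3, where Nfil3 was highest. Tox and Il5 were lowest in mouse 2, where Nfil3 was also lowest, and Il13 in mouse 1. Mouse 3 was also lowest for many of the 8461 detected genes, 18.8% with mouse 2 highest and 15.3% with mouse 1 highest. A link of these orders to Nfil3 was not tested.

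Of 8 genes known beside HLF in blood stem cells, 2 were detected, beside 31.1% of all genes in the table. The detected genes were Kit (362, 199 and 172 CPM), the stem cell factor receptor, and Meis1 (2.12, 1.76 and 3.87 CPM), a homeobox factor. Hoxa9, Gata2 and Erg had 0 counts in each library. Mecom had 3.18, 0.171 and 1.27 CPM, Cd34 0, 0.398 and 2.99 CPM, and Prdm16 0, 0 and 1.42 CPM. The median of the mean levels was 0.801 CPM in this list, 47.9 CPM in the NFIL3 list, 109.7 CPM in the cytokine list of DEC1 and 3.69 CPM in the PAR bZIP output list, beside the 5.28 CPM of all genes with a count. These medians include genes at 0 in every library. Over the genes with a count alone they were 1.54 CPM for 5 stem cell genes, 243 CPM for 8 NFIL3 genes, 109.7 CPM for the cytokine genes and 14.5 CPM for 3 PAR bZIP output genes, so the last list lay above all genes with a count when compared in this way.

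**Figure D3:**
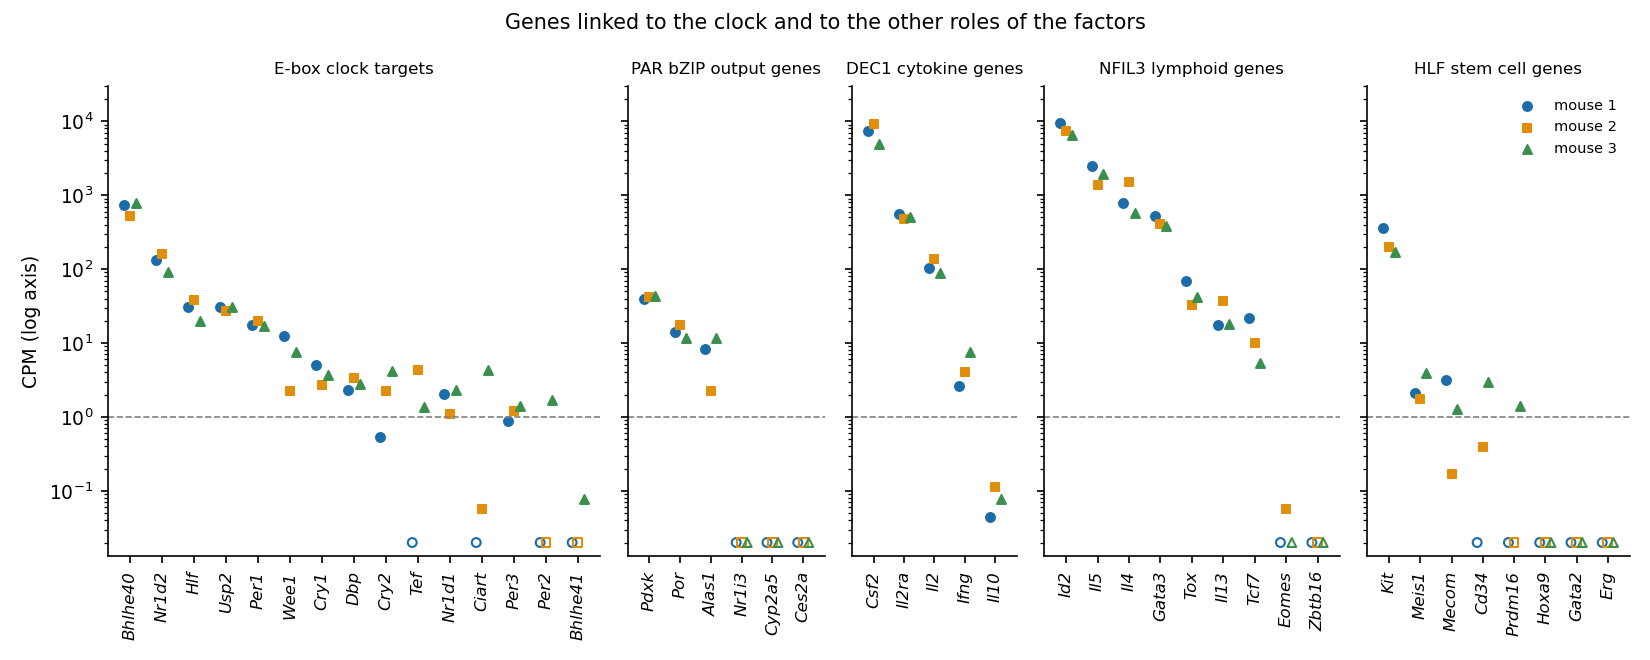
CPM on a log axis for genes tied to the clock roles (E-box targets, PAR bZIP output) and to the roles outside it (cytokine genes of DEC1, lymphoid genes of NFIL3, stem cell genes of HLF), with 1 point per mouse. Open symbols at the bottom edge are 0 counts and the dashed line is 1 CPM; detected genes number 9 of 15, 3 of 6, 4 of 5, 7 of 9 and 2 of 8 from left to right.

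Fbxl21, on chromosome 13 (56522388 to 56537898, plus strand), had 128, 187 and 139 CPM. Mouse 2 was highest and the span was 1.46-fold. None of the Fbxl21 50-mers occurred in a transcript of another gene on either strand.

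The RNA of the other parts of the ligase was abundant, and that of its substrates was not. Skp1a, the adaptor, had 615, 775 and 552 CPM, the scaffold Cul1 148, 185 and 220.4 CPM, and the RING protein gene Rbx1 224, 295 and 182 CPM. Cry2 had 0.529, 2.22 and 4.14 CPM, which was below Cry1 in mice 1 and 2 and above it in mouse 3. Per kb the substrate means were 1.14 ± 0.360 for Cry1 and 0.363 ± 0.286 for Cry2, below the 31.5 ± 6.52 of Fbxl21.

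Fbxl21 lies next to a type 2 cytokine gene: Il9 ends 40131 bases away at lower coordinates, and the table holds no gene between them. Il9 had 1.24, 13.8 and 7.44 CPM, from 28, 242 and 194 counts. It was lowest in mouse 1 and highest in mouse 2, as was Fbxl21, over an 11.1-fold span against 1.46-fold. Of all detected genes 14.9% had this order, Clock and Dbp among them. On the other side, the RefSeq model of Lect2, a liver chemotactic factor gene on the opposite strand, overlaps Fbxl21 over 8165 bases and had 0, 0 and 10 counts. The next gene, Tgfbi, had 0.529, 0.0569 and 0.0767 CPM. The Fbxl21 promoter is shown because the gene was among the 3 highest of the 9 in every mouse. Its start in the promoter table lies 84 bases inside the gene from the outermost RefSeq start. The 250 bases before it (GRCm38.p6, chr13:56522222-56522471, plus strand) hold 69.2% G or C, and none of the E-box, D-box or ROR letters was in its window.
Fbxl21: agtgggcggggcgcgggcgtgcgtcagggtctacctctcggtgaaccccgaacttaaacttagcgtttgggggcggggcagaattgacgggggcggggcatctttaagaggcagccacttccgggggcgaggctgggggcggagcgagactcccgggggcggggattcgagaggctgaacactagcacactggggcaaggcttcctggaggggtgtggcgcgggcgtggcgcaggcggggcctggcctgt

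Among the 7 detected genes the coefficient of variation between mice was largest for Arntl (39.2%) and Nfil3 (39.1%) and smallest for Dbp (18.1%). Of the 9 genes 7 passed the filter on low counts, and 0 of these were more variable than the abundance trend in the edgeR quasi-likelihood fit (upper-tail F test, Benjamini-Hochberg adjusted p below 0.05 over 9206 genes). Over all genes 19 were, or 0.206%. On simulated data this fit called only 4 of 100 genes with 1 library raised 8-fold. The widest span among the 7 was 2.35-fold (Arntl), so 0 calls do not show that these genes vary little. At an unadjusted p below 0.05 there were again 0 of the 7, against 4.39% of all tested genes. DESeq2 and limma also called 0 of the 7, against 24 and 17 over all genes. The ratio of the quasi-dispersion to the trend, on the log2 scale, was highest for Nfil3 (1.75, edgeR adjusted p = 0.976) and Arntl (0.57, 0.991) and lowest for Dbp (-3.34, 0.998). The median was -0.03 over the 7 genes and -0.42 over all tested genes. Bhlhe41 and Tef were not tested.

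**Figure D4:**
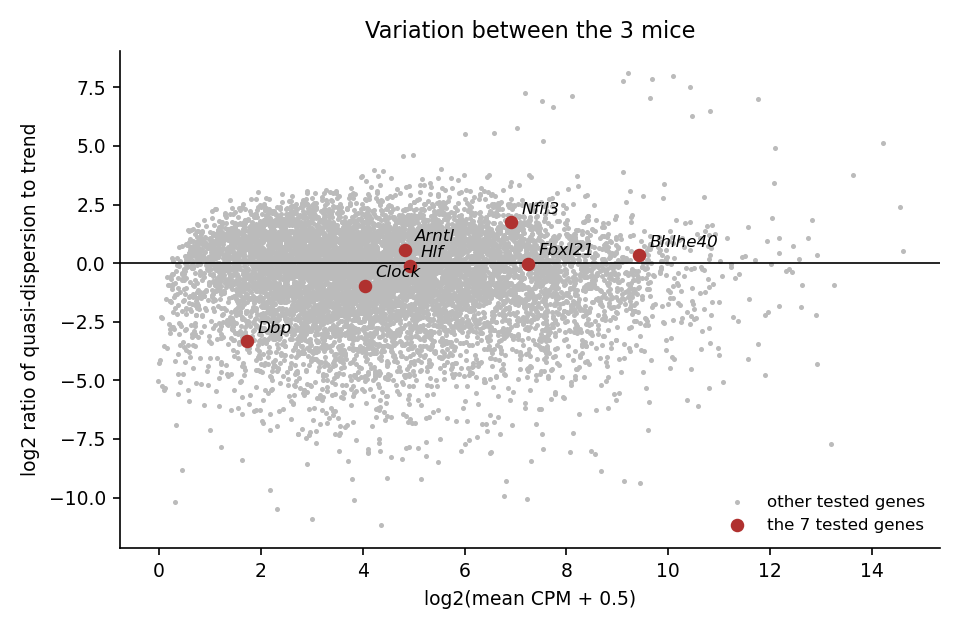
Log2 ratio of each gene's quasi-dispersion to the abundance trend, against log2(mean CPM + 0.5), for 9206 tested genes in grey and the 7 tested clock-linked genes in red. Nfil3 is the highest of the 7 at 1.75 and Dbp the lowest at -3.34, and all 7 lie within the cloud of other genes.

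Bhlhe40 and Nfil3 shared 1 order of the mice, with mouse 2 lowest and mouse 3 highest, which 20.6% of the 8461 detected genes also showed. Hlf and Arntl shared the order with mouse 3 lowest and mouse 2 highest, which 18.8% showed. Clock, Dbp and Fbxl21 had mouse 1 lowest and mouse 2 highest, as did 14.9%. The summed level of 16 immediate early and heat shock genes, which are induced during cell isolation, was 3118, 2041 and 4396 CPM and followed the order of Bhlhe40 and Nfil3. The median of the list had another order, with 113, 121 and 143 CPM in mice 1, 2 and 3. Of the 14 detected genes of that list, 4 had the order of the sum and 4 that of the median. The summed level of 10 B and plasma cell markers rose in another order, from 12789 to 34589 and 63244 CPM in mice 1, 2 and 3. The part of either in the levels of Bhlhe40 and Nfil3 was not tested.

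The genes nearest in level over the 3 libraries were sought by the Euclidean distance of log2(CPM + 0.5) among 10745 genes. With 3 libraries, such likeness is only a description. For Nfil3 these were Elavl1 (distance 0.07) and Cyc1 (0.09), and for Hlf they were Crebzf (0.10), itself a bZIP gene, and Stat6 (0.14), the signal transducer of IL-4 and IL-13. For Bhlhe40 they were Tax1bp1 (0.17) and Capzb (0.23), for Arntl Zfp292 (0.13) and Bdp1 (0.16), for Clock Pgs1 (0.08) and Tspyl1 (0.08), for Dbp Gm6581 (0.08) and 2900076A07Rik (0.10), and for Fbxl21 Cdc123 (0.05) and AI413582 (0.09).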

How the data were processed

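RNA was measured in 3 ILC2 libraries, built with the Clontech SMARTer Ultra Low Input V4 chemistry, per the labels' protocols. The deposited values are raw read counts, whole numbers per Entrez gene ID that the authors did not normalize. The submitters' processing notes name CASAVA 1.8.2, STAR 2.3.0 and the mm10 build, which corresponds to GRCm38. How reads were counted, by which annotation, and what was done with multiply mapped reads was not stated. Libraries are called mice 1 to 3 after the sample numbers of their titles. Pairs of libraries differed by a chi-square of 133 to 226 per degree of freedom, far above sampling noise.

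Of 27179 IDs, 25275 were named through the RefSeq table of GRCm38.p6, which also gave coordinates and promoters. CPM used library sizes scaled by TMM (edgeR 4.0.16, R 4.3.3; factors 1.03, 0.987 and 0.989). Differences are of log2(CPM + 0.5) per kb of summed exon length from GENCODE M21, tested by an exact two-sided sign-flip permutation over libraries. Variability was an intercept-only edgeR quasi-likelihood fit after filterByExpr (minimum count 10). On simulated data with 9206 genes it called 73 of 100 genes with 1 library raised 64-fold, 4 of 100 at 8-fold and 0 of 9006 unchanged genes. DESeq2 1.42.0 and limma 3.58.1 were alternatives. The 9 genes, pairs and lists were chosen with earlier results of these data known. Genes named were the 9, genes of their clock and role lists, the 3 highest of each factor family, RefSeq neighbours, the 2 nearest profiles of each detected gene, and marker genes that were highest or at 0. Sphk2, Lect2 and Gm43909 fall outside this rule and were named after their values were seen. Some genes of the lists are not reported here and are not counted among their genes.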

Additional observations from a re-analysis of the deposited data

How the results depend on the processing

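The length of the longest coding transcript was chosen as a divisor after seeing the data. No paired analysis was possible because all libraries belong to 1 group. All 7 log2 differences between genes kept their direction under each setting tried, and 67 comparisons of main results with a setting stayed within 1 SD or within 1.5 times a count, against 11 that did not. Without division by length, the difference was 5.41 for Bhlhe40 over Clock, 0.75 for Arntl over Clock, 1.97 for Nfil3 over Hlf, 3.16 for Hlf over Dbp and 1.72 for Nfil3 over the PAR bZIP sum. With the longest coding transcript it was 2.46 for Arntl over Clock, 4.99 for Nfil3 over Dbp and 1.54 for Hlf over Dbp. Without each mouse in turn, Bhlhe40 over Arntl was 4.87 to 5.77, Arntl over Clock 1.28 to 1.99, Nfil3 over Hlf 3.14 to 4.14 and Nfil3 over the PAR bZIP sum 2.80 to 3.74. All 54 alternative means of single genes lay within 1 SD, but 2 moved by more than 1.5 times: Tef fell from 1.88 to 0.690 CPM without mouse 2, and Bhlhe41 to 0 without mouse 3. At 5 CPM 6 of the 9 genes were detected, without Dbp, and without mouse 1 there were 8, with Tef. Over all genes, 19 were more variable than the trend, 0 with a robust prior (388 at an unadjusted p below 0.05), 1 without immunoglobulin genes (Gzma, the granzyme A gene) and 14 to 31 without a mouse in turn (31 without mouse 1). The cause was not tested. Of the 9 genes, the 6 to 9 that each setting tested included 0 calls. Without mouse 1, Nfil3 had an unadjusted p below 0.05 and an edgeR adjusted p of 0.851. Depth limits statements on Bhlhe41.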
